A study of Homo sapiens with 4 samples.

Results

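The RNA interference machinery was followed here through 10 genes: the Argonautes AGO1, AGO2, AGO3 and AGO4, the nuclear processing pair DROSHA and DGCR8, the export receptor XPO5, the dicing pair DICER1 and TARBP2, and the silencing scaffold TNRC6A. They were taken by name, with every probe set that the platform annotation gives to them, which came to 38 of 54613 probe sets. Of the 10, 9 are among the 19775 genes with a probe set of their own, and DGCR8 is not. Of the 38, 31 named the gene alone and 7 named a second gene as well. A probe set is a group of short array probes that reads 1 stretch of transcript, and its value is an intensity.

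The 4 arrays, 1 per group, carried RNA of 2 human melanoma lines collected 48 h after transfection. The groups were A375 with an siRNA for ZIC5, A375 with a negative control siRNA, SK-MEL-28 with the ZIC5 siRNA and SK-MEL-28 with the control siRNA. ZIC5 encodes a zinc-finger transcription factor, and both established lines carry an activating BRAF mutation. RNA was read in bulk, so fewer cells of a kind and less RNA per cell cannot be told apart. All 4 groups had received an siRNA and no array of untransfected cells was used here, so the comparisons concern which siRNA was given, and not what an siRNA does to its own machinery. No group had a replicate array, so precision is limited by having 4 arrays.

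MicroRNAs begin as hairpins in longer transcripts. DROSHA, with its RNA-binding partner DGCR8, cuts the hairpin out in the nucleus, XPO5 carries it to the cytoplasm, and DICER1 with its partner TARBP2 trims it to a short duplex. An Argonaute protein keeps 1 strand of that duplex, or of a transfected siRNA, as its guide, and TNRC6A (GW182) links the loaded Argonaute to deadenylation and decapping of the target mRNA. AGO2 is the Argonaute best known for cutting a fully matched target, the reaction that siRNA knockdown relies on.

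Median intensities of the arrays lay between 38.4 and 39.4. Probe sets whose mean log2 intensity reached 5, an intensity of 32, were treated as measurable. By that minimum 31 of the 38 probe sets were kept, and 7 were too dim: 3 of AGO4, 3 of DICER1 and 1 of AGO2. The targeted gene ZIC5 had 1 probe set, with intensities of 14.1 (ZIC5 siRNA) and 16.8 (control) in A375 cells and of 15.5 and 21.4 in SK-MEL-28, all under the minimum, so these arrays cannot show its knockdown. Of 7 melanocytic markers measured, 7 reached the minimum on both SK-MEL-28 arrays, with a summed intensity of 43146 and 46522. In A375 the number was 4 with ZIC5 siRNA and 5 with control siRNA, at sums of 2316 and 1751, and the pigment cell markers MLANA and TYRP1 were under 32 on both A375 arrays. The defining leukocyte marker PTPRC and endothelial marker CDH5 were under 32 on all 4 arrays, although 1 of 3 leukocyte and 2 of 3 endothelial markers reached the minimum. The keratinocyte marker KRT14 had 320 and 358 in A375 (ZIC5 siRNA, control siRNA).

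The sequences behind the naming and the neighbourhood of these genes are given first. AGO4, AGO1 and AGO3 lie in this order next to each other on chromosome 1 in the RefSeq table. The bases before the annotated start of AGO3 and of its neighbour AGO1, whose probe sets differed from each other on these arrays, and of TNRC6A are shown, 5′ to 3′ on the plus strand, from RefSeq on GRCh38.p14 (250 bases each, at chr1:35930855-35931104, chr1:35882959-35883208 and chr16:24729401-24729650). Capitals mark a match to a searched motif.
AGO3: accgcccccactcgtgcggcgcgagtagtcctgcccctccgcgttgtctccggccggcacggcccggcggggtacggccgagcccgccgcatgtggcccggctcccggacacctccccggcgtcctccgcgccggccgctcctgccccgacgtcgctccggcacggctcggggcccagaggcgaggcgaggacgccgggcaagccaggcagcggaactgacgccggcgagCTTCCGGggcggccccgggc
AGO1: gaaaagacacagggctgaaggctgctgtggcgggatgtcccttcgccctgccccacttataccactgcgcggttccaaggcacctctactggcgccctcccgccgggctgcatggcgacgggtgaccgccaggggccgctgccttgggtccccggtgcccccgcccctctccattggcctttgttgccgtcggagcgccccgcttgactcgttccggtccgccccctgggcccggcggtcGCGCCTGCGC
TNRC6A: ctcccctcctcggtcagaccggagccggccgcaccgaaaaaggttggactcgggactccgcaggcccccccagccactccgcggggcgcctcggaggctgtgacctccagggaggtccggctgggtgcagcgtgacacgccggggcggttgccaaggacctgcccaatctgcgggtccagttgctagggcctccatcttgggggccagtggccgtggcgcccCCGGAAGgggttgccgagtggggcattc

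Windows of 300 bases, 250 before and 50 after a start, were searched on both strands for 7 motifs, and 15 such windows were listed for 9 of the genes, AGO2 being the one not matched. The ETS core CCGGAAG was present in the AGO3 window, on the minus strand with its first base at -20, and in the TNRC6A window at -28 and, in the bases after the start, at 2, against 10.3% of 35116 windows of all genes. The NRF1 site was present in the AGO1 window at -10 and in that of XPO5, against 5.78% of windows. The AP-1 site TGANTCA was found in 1 window of DICER1 (7.71% of all windows). The GLI and ZIC core GGGTGGTC (0.974%), the amino acid response element TGATGNAA (3.62%), the E-box CACGTG (7.26%) and the CRE TGACGTCA (1.85%) were in none of the 15 windows. A match is a description of the letters only, and no motif overlapped another in the stretches printed.

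The 4 probe sets of DGCR8 all also named MIR1306, a microRNA gene that lies inside DGCR8 on chromosome 22, so they are reported as DGCR8/MIR1306. Its mature forms are shown because short RNAs of this size are what the machinery makes. Capitals mark the seed, bases 2 to 8, which differs between the arms (RefSeq, GRCh38.p14, plus strand, chr22:20086072-20086093 and chr22:20086112-20086129).
hsa-miR-1306-5p: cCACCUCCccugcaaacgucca
hsa-miR-1306-3p: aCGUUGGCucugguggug

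**Figure D1:**
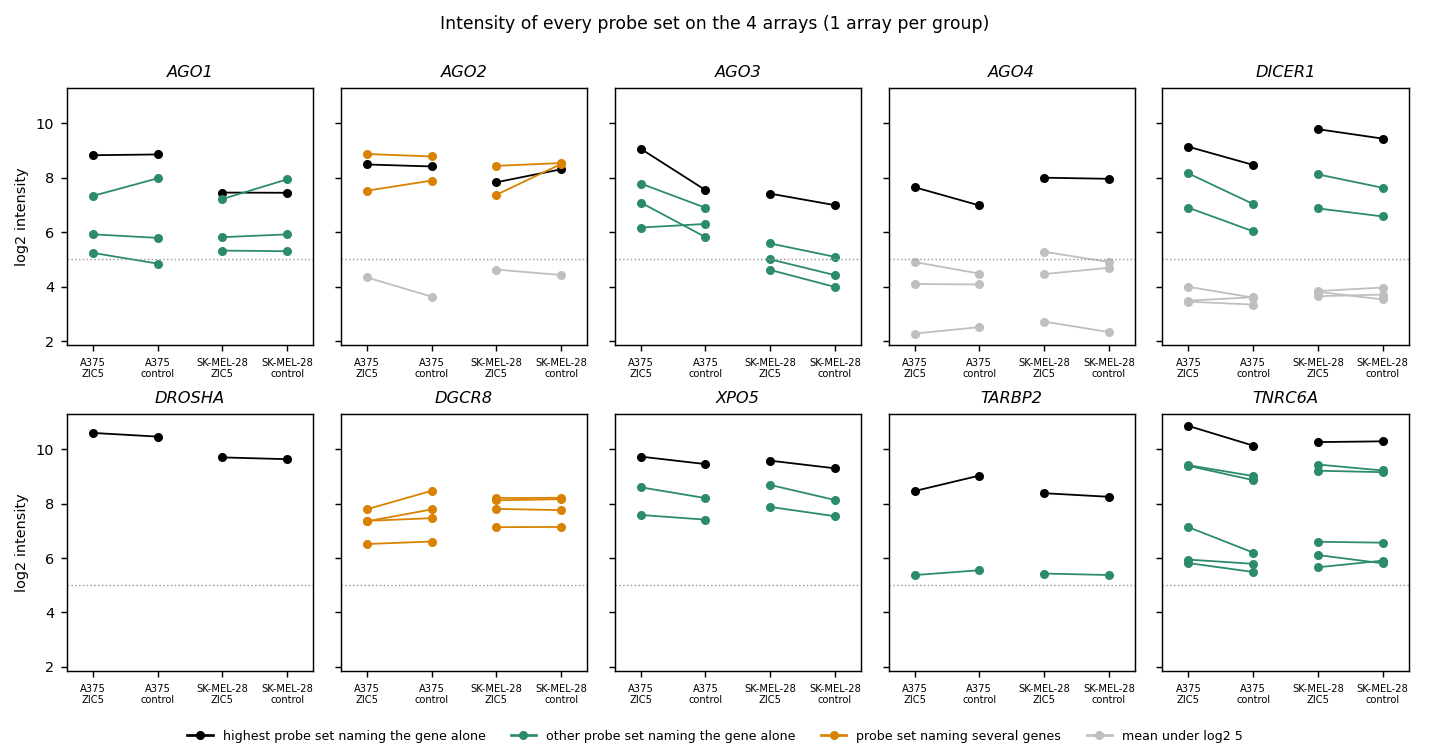
Log2 intensity of every probe set of the 10 genes on the 4 arrays, 1 array per group, with ZIC5 siRNA left of control siRNA in each line. Black marks the highest probe set that names the gene alone, and grey marks probe sets with a mean under log2 5. AGO3 on its highest probe set reads 535 in A375 with ZIC5 siRNA, above the other 3 arrays.

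The question for each line was whether cells given the ZIC5 siRNA held different levels of these transcripts than cells given the control siRNA. AGO3 stood out in A375, where it was 2.86-fold higher on its highest probe set. DICER1 was higher in both lines on all 3 of its measurable probe sets, as was XPO5 on all 3. TNRC6A was higher on all 6 probe sets in A375 cells and on 4 of 6 in SK-MEL-28, while TARBP2 and DGCR8/MIR1306 were lower in A375 on every probe set. By the highest probe set of each gene, 1 of 9 genes differed at least 2-fold in A375 (8.95% of all 13794 genes did) and 0 of 9 in SK-MEL-28 (2.89% did). DGCR8 has no probe set of its own and is outside the 9.

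At the lower size of 1.5-fold, AGO3, AGO4, DICER1 and TNRC6A were higher in A375, 4 of 9 genes. Of all genes 12.1% were higher by that much there and 25.1% differed by it in either direction. In SK-MEL-28 0 of 9 genes passed that size (10.6% of all genes, either direction). The median difference of the 9 genes was 0.27 in A375 cells and 0.07 in SK-MEL-28 on the log2 scale, beside -0.01 and 0.00 over all genes. Counted by probe set, 21 of 31 were higher in each line, beside 49.4% of all 26609 measurable probe sets with a gene name in A375 cells and 51.8% in SK-MEL-28. By probe set, 3 of 31 were at least 2-fold higher in A375 (4.49% of all, and 9.59% in either direction) and 1 of 31 at least 2-fold lower in SK-MEL-28 (1.82%, and 2.68% in either direction). Probe sets of 1 gene read the same RNA and are not independent of each other. In both lines at once 16 of the 31 were higher (32.8% of all probe sets) and 5 were lower (31.4%). The SK-MEL-28 count of 21 holds 241091_at and 235782_at of AGO3, which were under 32 on both SK-MEL-28 arrays. With log2 values under 5 set to 5, their SK-MEL-28 differences were 0.00. The first of them, 241091_at, is also among the 16.

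**Figure D2:**
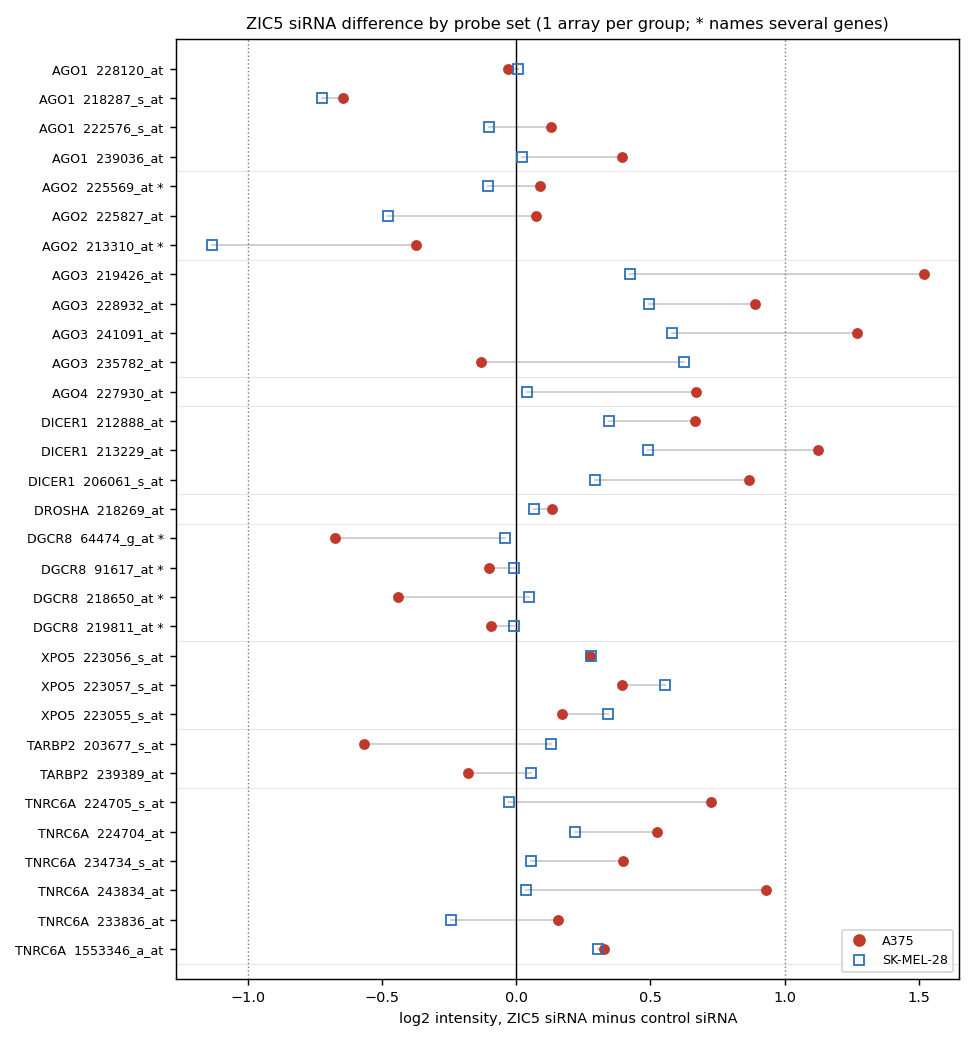
Log2 intensity with ZIC5 siRNA minus control siRNA for the 31 measurable probe sets, A375 as circles and SK-MEL-28 as squares, 1 array per group. Dotted lines mark 2-fold. AGO3 and DICER1 hold the 3 A375 values past 2-fold on the high side, and AGO2 with 213310_at the single SK-MEL-28 value past 2-fold on the low side.

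At the nuclear step DROSHA differed little between the siRNAs, and DGCR8/MIR1306 was lower in A375 by an amount that depended on the probe set. DROSHA, the RNase III enzyme that releases the hairpin, had 1 probe set, with an intensity of 1545 (ZIC5 siRNA) and 1407 (control) in A375 cells and of 829 and 792 in SK-MEL-28. These are log2 differences of 0.13 and 0.07, close to the centre of the genes analysed. The DGCR8/MIR1306 probe sets were lower in A375, by -0.68 on 64474_g_at, where the intensity was 221 with ZIC5 siRNA and 354 with control siRNA. On 218650_at the A375 difference was -0.44, and on 91617_at and 219811_at it was -0.10 and -0.09. In SK-MEL-28 all 4 lay between -0.04 and 0.05, so the A375 values were spread over a wider range than those of SK-MEL-28.

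XPO5, the exportin that carries the hairpin precursor out of the nucleus, was higher with ZIC5 siRNA wherever it was measured. On its highest probe set the intensity was 846 (ZIC5 siRNA) and 699 (control) in A375 cells and 762 and 628 in SK-MEL-28. Both lines thus differed by nearly the same amount, 0.27 in A375 cells and 0.28 in SK-MEL-28. The other 2 probe sets gave 0.40 and 0.17 in A375 cells and 0.55 and 0.34 in SK-MEL-28.

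The dicing pair gave different readings. DICER1, which cuts the precursor to its final length, had 562 (ZIC5 siRNA) and 354 (control) in A375 on 212888_at, and 879 and 691 in SK-MEL-28. Both ZIC5 siRNA arrays were above the control array of the same line, and both SK-MEL-28 arrays were above both A375 arrays. On 213229_at the intensities were 285 and 131 in A375, a 2.18-fold difference, and 278 and 198 in SK-MEL-28. On 206061_s_at they were 119 and 65.3, and 117 and 95.4. The A375 difference was therefore 0.67 to 1.13 over the 3 probe sets, and the SK-MEL-28 difference 0.29 to 0.49. TARBP2, the double-stranded RNA-binding partner of DICER1, had 352 (ZIC5 siRNA) and 521 (control) in A375 but 333 and 304 in SK-MEL-28. Its A375 control array was the highest of the 4 and the other 3 lay close together, at differences of -0.57 and 0.13. A second, dim TARBP2 probe set differed by -0.18 and 0.06.

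By highest probe set AGO3 had the widest range of the Argonautes over the 4 arrays, 2.07 on the log2 scale. On 219426_at its intensity was 535 (ZIC5 siRNA) and 187 (control) in A375 cells, and 170 and 127 in SK-MEL-28. The order was A375 with ZIC5 siRNA, A375 with control siRNA, SK-MEL-28 with ZIC5 siRNA and SK-MEL-28 with control siRNA, and with 1 array each no spread is known for neighbours in it. The difference of 1.52 in A375 was at percentile 98.7 of all genes, and that of 0.42 in SK-MEL-28 at percentile 91.4. The other AGO3 probe sets gave 0.89 on 228932_at and 1.27 on 241091_at in A375. However, 235782_at read 71.9 (ZIC5 siRNA) and 78.7 (control) in A375 cells, and differed by -0.13. All 4 AGO3 probe sets were higher in SK-MEL-28, by 0.42 to 0.63, but on 241091_at and 235782_at the SK-MEL-28 intensities were under 32, and with log2 values under 5 set to 5 both became 0.00.

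AGO4, the neighbour of AGO1, had 1 measurable probe set, at 201 (ZIC5 siRNA) and 126 (control) in A375 cells and at 256 and 248 in SK-MEL-28. The A375 control array was the lowest of the 4 (differences of 0.67 and 0.04). Its other 3 probe sets had means under the minimum and are given no direction.

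AGO1 gave a different answer on each of its 4 probe sets. On the highest, 228120_at, the intensities were 453 (ZIC5 siRNA) and 462 (control) in A375 cells and 175 and 174 in SK-MEL-28, which are differences of -0.03 and 0.01. On 218287_s_at they were 161 and 252 in A375 cells and 149 and 245 in SK-MEL-28, which is lower in both lines, by -0.65 and -0.72. On the first the lines stood apart and the siRNAs did not, and on the second the siRNAs stood apart and the lines did not. The remaining probe sets were dim, with differences of 0.13 and -0.10 on 222576_s_at and of 0.39 and 0.02 on 239036_at, where the A375 control array read 28.7.

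AGO2, the slicing Argonaute, was read by 225827_at alone and by 3 probe sets that also name CASC7, an RNA gene, so that these 3 are given as AGO2/CASC7. On 225827_at the intensity was 358 (ZIC5 siRNA) and 340 (control) in A375 cells and 227 and 317 in SK-MEL-28, where the ZIC5 siRNA array was the lowest of the 4. The differences were 0.07 and -0.48. On 213310_at (AGO2/CASC7) they were -0.37 and -1.13, with 165 against 363 in SK-MEL-28, 2.19-fold lower, and on 225569_at (AGO2/CASC7) 0.09 and -0.10. All 3 were lower in SK-MEL-28, and the size ran from -0.10 to -1.13.

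TNRC6A, which recruits the CCR4-NOT deadenylase to the Argonaute, had 1848 (ZIC5 siRNA) and 1119 (control) in A375 on 224705_s_at and 1224 and 1248 in SK-MEL-28. The A375 array with ZIC5 siRNA was the highest of the 4 and the other 3 lay within 1119 to 1248. All 6 probe sets were higher in A375, by 0.15 to 0.93. In SK-MEL-28 they ran from -0.24 to 0.30.

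**Figure D3:**
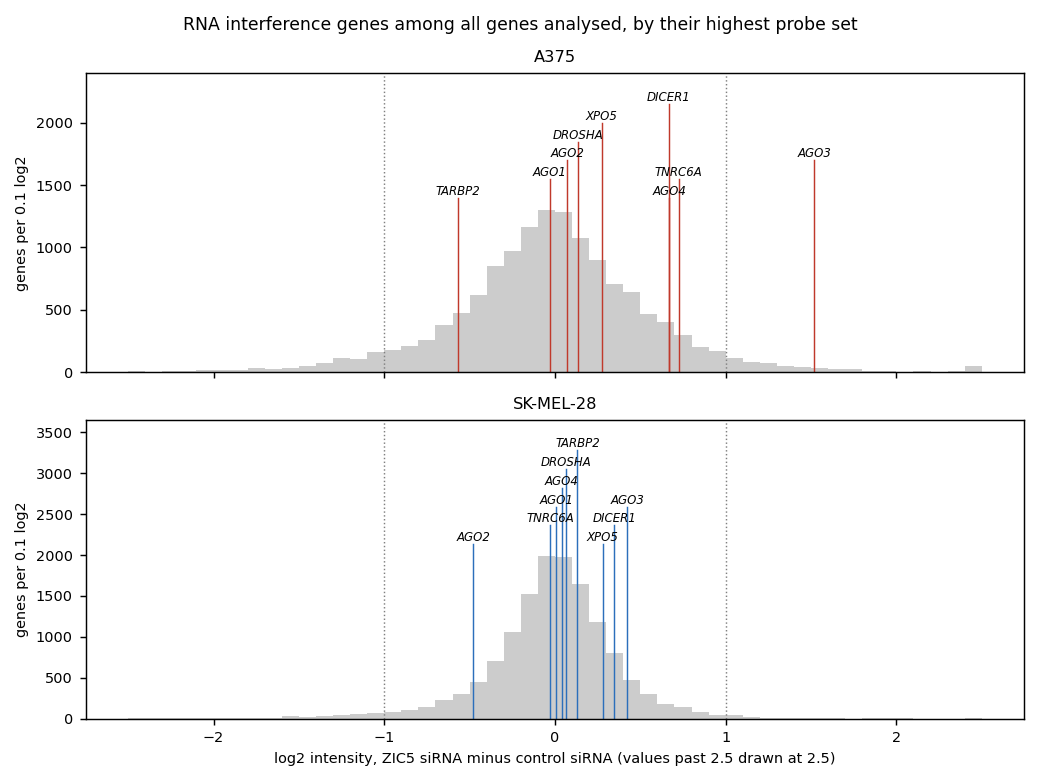
Distribution of the log2 difference between ZIC5 siRNA and control siRNA over the 13794 genes analysed, in A375 above and SK-MEL-28 below, as numbers of genes per 0.1 log2. Coloured lines mark 9 of the RNA interference genes by their highest probe set. AGO3 at 1.52 in A375 is the one past the dotted 2-fold lines.

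The siRNA effect common to the lines was then estimated with limma in a fit over all 13794 genes that held the line as a term, so that the 2 lines were the only replication. Of the 9 genes, 0 passed a Benjamini-Hochberg adjusted p under 0.05, as did 0.00% of all genes, and 1 of 9 had an unadjusted p under 0.05 (13.2% of all genes did). That gene was AGO3, with a mean difference of 0.97 (SE 0.33, higher in 2 of 2 lines), a limma p of 0.0441 and an adjusted p of 0.373. DICER1 followed with 0.51 (SE 0.18, limma adjusted p = 0.379), and XPO5 with 0.28 (SE 0.16, limma adjusted p = 0.486). In a fit over every probe set, 6 of 31 had an unadjusted p under 0.05 (13.8% of all probe sets). They were 3 of AGO3 and 1 each of DICER1, AGO1 and AGO2/CASC7. Among those of AGO3, 241091_at reached the level minimum through A375 only. With log2 values under 5 set to 5 its SK-MEL-28 difference was 0.00, so it is no support for an effect common to the lines. Of the 6, 228932_at of AGO3, with all 4 arrays above 32, had 0.69 (SE 0.20, limma adjusted p = 0.326), and 218287_s_at of AGO1 had -0.68 (SE 0.18, limma adjusted p = 0.318). The effect in one line was not tested against that in the other, since no group had a second array.

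The lines themselves were compared next, which asks how the machinery of A375 differs from that of SK-MEL-28. DROSHA was higher in A375. AGO1 passed the test as higher in A375, and DICER1 as lower, each on 1 of its measurable probe sets. AGO3 was above SK-MEL-28 on all 4 probe sets by value but did not pass on the highest one. Of the 4, 241091_at and 235782_at reached the level minimum through A375 only, so their direction was set by that minimum. In the same fit 3 of the 9 genes passed at an adjusted p under 0.05, beside 27.7% of all genes. The only replication of a line in this test was its ZIC5 siRNA and control siRNA arrays, since no group had a replicate array. DROSHA was higher in A375 by 0.86 (SE 0.15, limma adjusted p = 0.0266), with 0.90 between the ZIC5 siRNA arrays and 0.83 between the control arrays. AGO1 on 228120_at was higher in A375 by 1.39 (SE 0.17, limma adjusted p = 0.0151). DICER1 on 212888_at was lower in A375 by -0.80 (SE 0.18, limma adjusted p = 0.0468).

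The AGO1 and DICER1 calls rested on the highest probe set. The other 3 AGO1 probe sets differed between the lines by -0.27 to 0.07 in the fit over every probe set, with a limma adjusted p of 0.320 at the lowest. For DICER1 the 2 other probe sets gave -0.28 and -0.26 (limma adjusted p = 0.455 and 0.458). They differed by 0.04 and 0.03 between the ZIC5 siRNA arrays but by -0.60 and -0.55 between the control arrays. AGO3 was the reverse case. On its highest probe set the line effect was 1.10 (SE 0.33, limma adjusted p = 0.0835), while 228932_at passed in the fit over every probe set (limma adjusted p = 0.00904). In that fit 7 of the 31 probe sets passed, beside 25.7% of all. They include 241091_at and 235782_at of AGO3, which reached the level minimum through A375 only, so their passing is no support for the line difference. With log2 values under 5 set to 5, the control-array difference was 1.80 on 228932_at, 0.82 on 241091_at and 1.30 on 235782_at.

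The other 5 genes of the fit did not pass. Between the control arrays AGO4 differed by -0.98 (126 in A375 cells and 248 in SK-MEL-28), TARBP2 by 0.78 (521 and 304), AGO2 by 0.10, XPO5 by 0.16 and TNRC6A by -0.16. Over both siRNAs their line effects had, in that order, a limma adjusted p of 0.120, 0.274, 0.282, 0.528 and 0.549. The 2-fold size was met by 2 of 9 genes between the ZIC5 siRNA arrays (23.8% of all genes), AGO1 and AGO3 at 1.65, and by 1 of 9 between the control arrays (22.2%), AGO1. Between the control arrays 5 of 9 genes differed at least 1.5-fold (40.5% of all genes), and of all probe sets 21.0% differed at least 2-fold. The melanocytic markers differ between the lines as well, in the sums given above, and their part in these differences was not tested. The control arrays enter both the siRNA and the line differences, so the 2 kinds of value are not independent. Of the DGCR8/MIR1306 probe sets, 91617_at was lower in A375 by -0.79 (SE 0.18, limma adjusted p = 0.0482), and 64474_g_at gave -0.01.

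**Figure D4:**
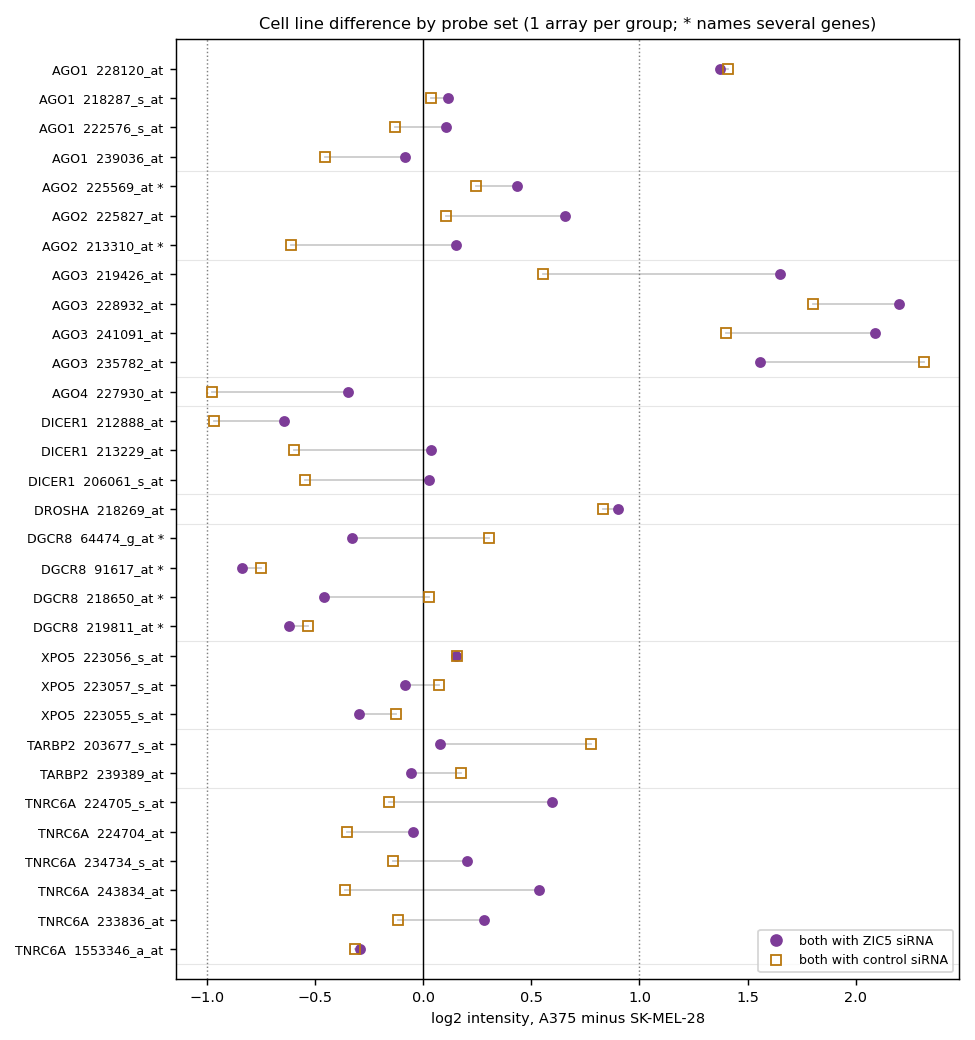
Log2 intensity in A375 minus SK-MEL-28 for the 31 measurable probe sets, between the ZIC5 siRNA arrays as circles and between the control siRNA arrays as squares, 1 array per group. Dotted lines mark 2-fold. The AGO3 values all lie above 0, from 0.56 to 2.31, while the AGO1 values run from -0.46 to 1.41. On 241091_at and 235782_at of AGO3, the latter holding the 2.31, the SK-MEL-28 intensities were under 32.

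Probe sets of 1 gene disagreed for several members. Of the 8 genes with several measurable probe sets, 3 had probe sets of opposite sign for the A375 siRNA difference (AGO1, AGO2 and AGO3) and 3 for that in SK-MEL-28 (AGO1, DGCR8 and TNRC6A). Over all 6635 genes with several measurable probe sets naming the gene alone, the shares were 41.2% and 41.4%. On that stricter basis AGO2 and DGCR8 drop out. AGO1 and AGO3 then remain for A375, and AGO1 and TNRC6A for SK-MEL-28. The distance between the lowest and the highest probe set in A375 was 1.65 for AGO3, 1.04 for AGO1, 0.78 for TNRC6A, 0.46 for DICER1 and 0.22 for XPO5. For AGO1 in both lines and for AGO2 in A375 no direction of the gene as a whole is given, as it depends on the probe set. AGO3 was higher in A375 on 3 of its 4 measurable probe sets, so its direction there also depends on the probe set. The files do not say which part of the transcript each probe set reads, and a role for transcript forms was not tested.

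Genes that work with this machinery were read as 7 lists with 141 names, of which 100 were measurable. In A375, 3 of the 100 were at least 2-fold higher (3.89% of all genes) and 0 were 2-fold lower (5.05%). In SK-MEL-28 these counts were 1 (0.776%) and 0 (2.12%). None of the 100 passed the limma fit of the siRNA effect at an adjusted p under 0.05.

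The silencing effectors, which remove the tail and cap of a repressed mRNA, held 2 of the 3 list genes at least 2-fold higher in A375. Their median was 0.18 in A375 cells and 0.10 in SK-MEL-28, and 19 of 31 were higher with ZIC5 siRNA in A375 cells and 21 of 31 in SK-MEL-28. DCP2, the decapping enzyme, had 1684 (ZIC5 siRNA) and 766 (control) in A375 cells and 1801 and 896 in SK-MEL-28. It was thus about equally higher in both lines, by 1.14 and 1.01, with that sign on all 3 of its probe sets and a limma adjusted p of 0.268 (mean 1.07, SE 0.15). DDX6, the helicase that joins decapping to repression, had 906 and 303 in A375 but 227 and 173 in SK-MEL-28 (1.58 and 0.39). PATL1, a decapping scaffold, differed by 0.18 and -0.93, and in A375 3 of its 4 probe sets had the opposite sign.

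Of 11 genes for tailing and turnover of small RNAs, 4 were higher with ZIC5 siRNA in each line, with medians of -0.08 and -0.10. TUT7, a uridyl transferase acting on microRNA precursors, had 778 (ZIC5 siRNA) and 297 (control) in A375 cells and 314 and 250 in SK-MEL-28 (1.39 and 0.33). ERI1, an exonuclease, differed by -0.82 and -0.57, and the poly(A) polymerase TENT2 by 0.62 and 0.33.

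Of 13 cofactors of nuclear processing, 9 were lower with ZIC5 siRNA in A375 and 6 in SK-MEL-28. Their medians were -0.34 and 0.05, beside -0.01 and 0.00 over all genes. The helicase DDX5 differed by -0.87 in A375 cells and 0.21 in SK-MEL-28, and KHSRP, which aids the processing of some hairpins, by -0.83 and -0.31 on all 4 probe sets with that sign. METTL3, the RNA methylase, gave -0.72 and -0.67 on its brightest probe set, against the sign of the other 2. Among 13 genes of export, loading and assembly the medians were -0.22 and 0.00, and SND1, a nuclease associated with the silencing complex, was the highest at 0.82 and 0.58. TSNAX, a subunit of the C3PO nuclease, differed by 0.47 and 0.27, and the helicase DHX9 by -0.40 and -0.18.

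Cells can also meet siRNA through sensors of double-stranded RNA. Of 13 such genes measured, 6 were higher with ZIC5 siRNA in A375 cells and 3 in SK-MEL-28, with medians of -0.13 and -0.08. In each line 0 were past 2-fold, beside 8.95% of all genes in A375 and 2.89% in SK-MEL-28. OAS3 differed by -0.88 and -0.34, OASL by 0.70 and -0.02, and IFIH1 by 0.02 and 0.68. For OASL the SK-MEL-28 sign held on 1 of 2 probe sets. Of the germline PIWI Argonautes only PIWIL2 reached the minimum, at 36.0 to 48.4 on the 4 arrays (differences of -0.42 and 0.03). In each line only 1 of its 2 measurable probe sets had that sign. Among 18 microRNA host transcripts the medians were -0.01 and -0.01, and MIR31HG (-0.78 and 0.17), MIR210HG (-0.59 and -0.48) and MIR670HG (-0.59 and 0.07) had the greatest differences.

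**Figure D5:**
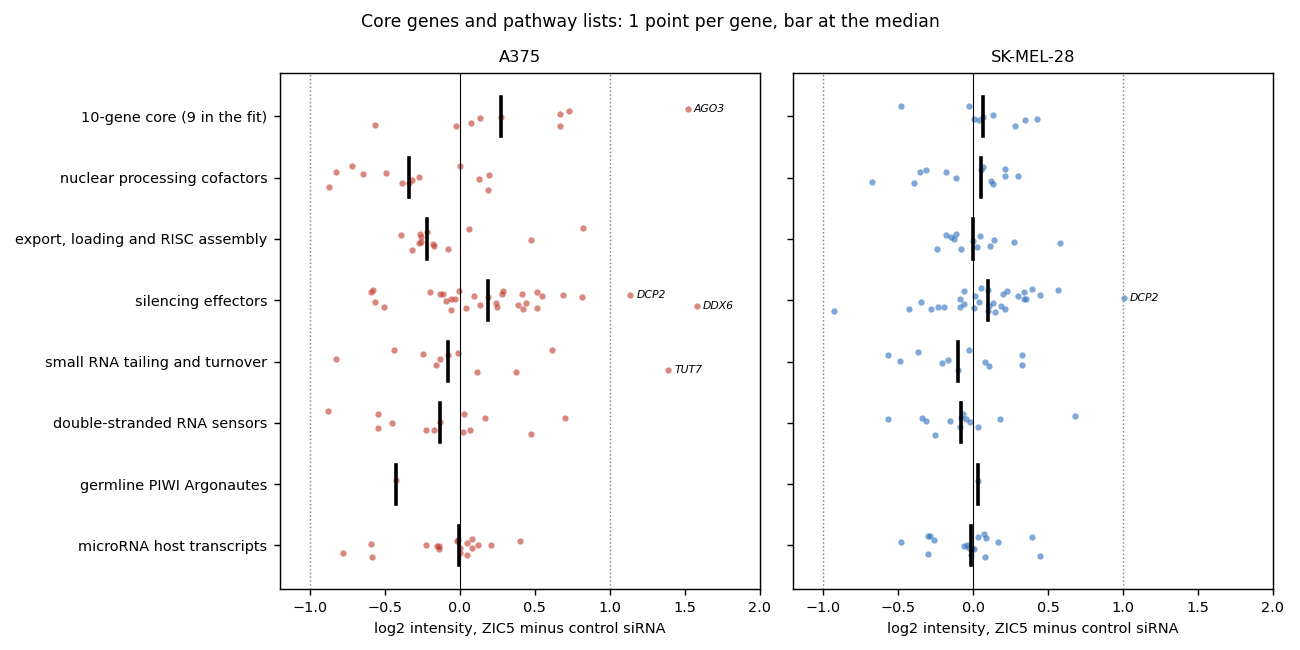
Log2 difference between ZIC5 siRNA and control siRNA for the RNA interference genes and 7 lists of their partners, in A375 at left and SK-MEL-28 at right, with 1 point per gene and a bar at the list median. Dotted lines mark 2-fold. DCP2 is past 2-fold in both lines, and AGO3, DDX6 and TUT7 in A375.

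The genes whose profile over the 4 arrays lay nearest to that of AGO3 were AHRR, OPN3 and NAIP, at a root mean square difference of 0.039, 0.068 and 0.082 between log2 values centred on each gene's mean. AHRR read 618 (ZIC5 siRNA) and 211 (control) in A375 cells and 207 and 148 in SK-MEL-28. For DICER1 they were TAOK2, NDUFS1 and TCF25, at 0.029, 0.034 and 0.034. The measure covers 4 arrays and describes them only.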

How the data were processed

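Per the labels' protocols, biotinylated cRNA was made from 100 ng of total RNA of each of the 4 samples. The authors deposited intensity values by probe set, which the submitters' processing notes credit to RMA and Affymetrix Expression Console. Their versions are not given in the sources used here. Values span 2.8 to 22531 and are linear, so log2 was computed here. Groups follow the sample titles. RMA brings the arrays close to 1 distribution (their medians lay between 38.4 and 39.4), so a shift of all genes cannot be seen.

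Names came from the platform annotation given with the data, checked by entrez ID in RefSeq (GRCh38.p14): 41037 probe sets naming 1 gene matched, 54 did not, and 0 symbols changed. A gene was the highest probe set naming it alone, and 13794 genes with a mean log2 of 5 or more were analysed. A difference within a line has no test. Effects over both lines came from limma 3.58.1 (R 4.3.3), additive in line and siRNA with a trended prior, 1 residual degree of freedom and Benjamini-Hochberg adjustment over all genes, a step tested on simulated data. Whether cultures were separate is not stated. With no replicate array in any group, the residual is how far the siRNA difference departs between the lines, together with array noise. The p-values therefore do not measure spread between repeated cultures of a group.

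The 10 genes, the 7 lists and the motifs were chosen with earlier results of these data known, the motifs after the values were seen. Named list genes were the 3 with the greatest siRNA difference in either line, and any past 2-fold. Nearest profiles were taken for DICER1 and for the gene with the widest range. Alternatives covered the level minimum, low values, normalization, the choice of probe set, the threshold and the limma prior, and probe sets naming several genes were added after the data were seen.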

Additional observations from a re-analysis of the deposited data

Results flagged for a closer look

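The siRNA difference had opposite signs in the 2 lines on the highest probe set of 4 genes, and with 1 array per group this was not tested. For TNRC6A it was 0.72 in A375 cells against -0.03 in SK-MEL-28, which are 0.75 apart. For TARBP2 it was -0.57 and 0.13, with A375 lower by -0.70. For AGO2 it was 0.07 and -0.48, 0.55 apart, and for AGO1 -0.03 and 0.01, -0.037 apart, both close to 0. For AGO1, AGO2/CASC7 and TNRC6A some other probe sets had the same sign in both lines. By probe set 10 of 31 had opposite signs. Of all measurable probe sets with a gene name, 32.8% were higher in both lines and 31.4% lower in both, which leaves a similar share for opposite signs.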

How the results depend on the processing

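The fold threshold and the choice of probe set both moved the counts. For A375 the 1 of 9 genes at least 2-fold different with ZIC5 siRNA (AGO3) became 0 with the mean of all probe sets, 2 (AGO3 and DICER1) when any probe set counted, and 4 at 1.5-fold. With the second highest probe set it stayed 1, but the gene was DICER1 (1.13) and AGO3 was at 0.89. For SK-MEL-28 the 0 became 1 (AGO2/CASC7) when any probe set counted. For the line difference between control arrays the 1 (AGO1) became 3 with cyclic loess (AGO4 and DICER1 added), 2 when any probe set counted and 5 at 1.5-fold. With the mean of all probe sets and with the second highest it stayed 1, but the gene was AGO3 (1.52 and 1.80), and AGO1 was at 0.22 and 0.04. The 0 calls of the siRNA effect became 1 at an unadjusted p under 0.05. The 3 calls of the line effect became 5 when any probe set counted, with AGO3 and DGCR8/MIR1306 added. With the second highest probe set AGO1 (0.07, limma adjusted p = 0.809) and DICER1 (-0.28, limma adjusted p = 0.459) lost the line call and AGO3 gained it (limma adjusted p = 0.00815). With the mean of all probe sets AGO1 (limma adjusted p = 0.212) and DICER1 (limma adjusted p = 0.200) also lost it and AGO3 gained it (limma adjusted p = 0.00632), with dim SK-MEL-28 probe sets in that mean. DICER1 lost it without a level minimum (limma adjusted p = 0.0642), and AGO3 gained it at a minimum of 7 (limma adjusted p = 0.0450). Of 386 values of single genes under these settings 360 kept their size or call, 18 moved, 5 lost a call and 3 gained one, and 0 called values changed sign. Many could not change, since the level minimum, the setting of low values and the limma prior left the differences of these genes as they were. With the second highest probe set 26 kept their size or call, 11 moved, 2 lost a call and 1 gained one. With the mean of all probe sets these numbers were 31, 6, 2 and 1. The line term of the limma fit already compares the siRNAs within each line, and with 1 array per group no further pairing was possible. Intensities under 32 carry little signal over background, which limits the dim probe sets of AGO3, AGO4 and DICER1.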
